A study of Mus musculus with 8 samples.

Results

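The genes described here encode integrins, their ligand fibronectin and the adaptor proteins of focal adhesions in mouse embryonic fibroblasts (MEFs). They are 37 named genes of 48527 in the deposited table, picked by gene name: 18 integrin chains, fibronectin (Fn1) and 18 adaptors. The study compared MEFs, fibroblasts cultured from mouse embryos, that carried an empty vector (EV) with MEFs that carried wild-type YAP, a transcriptional co-activator restrained by the Hippo pathway. Vectors were delivered by lentivirus, all cells were grown with doxycycline at 1 µg/mL, and cells were sorted on the reporter that the vector encodes. EV replicates 1 and 2 expressed GFP and EV replicates 3 and 4 mCherry. In YAP replicates 1 and 2 the YAP protein was fused to GFP, and in YAP replicates 3 and 4 to mCherry. Values per library are always given in the order of replicates 1 to 4. The labels give neither the genotype of the MEFs nor whether replicates came from separate cultures, embryos or sorts. The p-values therefore describe the spread among 8 libraries, which may be technical.

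Integrins are heterodimers of an alpha and a beta chain that span the plasma membrane and bind matrix proteins outside the cell. Some bind collagens, some bind laminins of the basement membrane, and others recognise the arginine-glycine-aspartate (RGD) sequence of fibronectin, vitronectin and osteopontin. Inside the cell the beta tails bind talin and kindlin, and further adaptors connect them to actin filaments and to signalling by focal adhesion kinase. Fibroblasts use these contacts to adhere, to pull on matrix and to assemble it, and tension at focal adhesions is a known input to YAP.

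Expression was measured as FPKM, the fragments per kilobase of gene model scaled to the mapped fragments of the library. The FPKM of a library summed to between 733152 and 1018404, and the absolute depth is unknown. All 12 fibroblast markers examined, Col1a1, Vim, Thy1 and Pdgfrb among them, had a mean FPKM of at least 1. Of these 12, Pdgfra fell (log2 -0.55, limma adjusted p = 0.0282), so that 8.33% were called against 1.76% of all genes. An unadjusted p under 0.05 was found for 5 (41.7%), all below 0, against 14.5% of all genes. The groups did not overlap for 3 (25%), all lower in YAP, against 9.46% of all genes. Yap1 transcript was lower in YAP libraries, at 80.03 to 84.9 FPKM against 88.4 to 93.2 FPKM in EV (exact two-sided permutation test, p = 0.0286, which 4 against 4 values cannot go below). The transcript level therefore does not check the labels, and directions refer to the libraries as labelled. The YAP target Cyr61 had means of 467 ± 53.1 FPKM in EV and 859.6 ± 83.01 FPKM in YAP (± SD, n = 4 libraries each) and rose. Macrophage and leukocyte markers were present, and of 14 listed, 13 were tested. Of the 13, 11 (84.6%) lay below 0 in YAP minus EV, against 50.7% of all genes. Of the same 13, 3 (23.1%) fell, C1qa, C1qc and Ms4a7, against 0.821% of all genes. The summed FPKM of the 14 ranged from 303.9 to 431 in EV and from 158 to 377 in YAP, and none was at 0 in all libraries. In bulk RNA, fewer cells of a type and less RNA per cell cannot be told apart.

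The integrin chains covered a wide range of levels. Itgb1, the beta chain shared by many integrins, was the most abundant chain, at 267 ± 16.4 FPKM in EV and 271 ± 22.6 FPKM in YAP. Itga5, the alpha chain of the classical fibronectin receptor, and Itgb5, a partner of Itgav, followed at 106 ± 2.38 and 102 ± 27.4 FPKM in EV, levels that lay within their spread of each other. Itgav, the alpha chain of the vitronectin receptors, came next at 42.97 ± 1.87 FPKM, close to the collagen receptor chain Itga11 at 39.3 ± 4.95 FPKM. The level of Itgav is uncertain, since the authors' deposited table gives it 112 FPKM in the control arm, 2.61 times the EV mean, beside 116 FPKM for Itga5 and 43.1 FPKM for Itga11. The laminin receptor chains Itga6, Itga7 and Itga3 had EV means of 13.9 ± 0.881, 12.9 ± 0.9996 and 10.2 ± 0.798 FPKM, and Itga9, a receptor chain for tenascin C and VCAM1, had 10.02 ± 2.90 FPKM. Itgb3 (5.65 ± 0.315 FPKM) and Itgb8 (4.59 ± 0.2701 FPKM), beta chains of RGD-binding integrins, stood below these. Itga8, Itga1 and Itga4 had overlapping levels, with EV means of 3.37 ± 1.04, 3.05 ± 0.596 and 2.98 ± 0.336 FPKM. Itga2, Itgb4 and Itgb7 had a mean FPKM under 1 and were not tested. Itga2, a collagen receptor chain of epithelia and platelets, was listed at 0 in 2 EV libraries and reached at most 0.124 FPKM. Itgb7, a leukocyte chain, was listed at 0 in 1 library and reached at most 0.688 FPKM. Itgb4, the hemidesmosome chain that pairs with Itga6, ranged from 0.2097 to 1.62 FPKM in EV and from 0.522 to 1.69 FPKM in YAP.

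**Figure D1:**
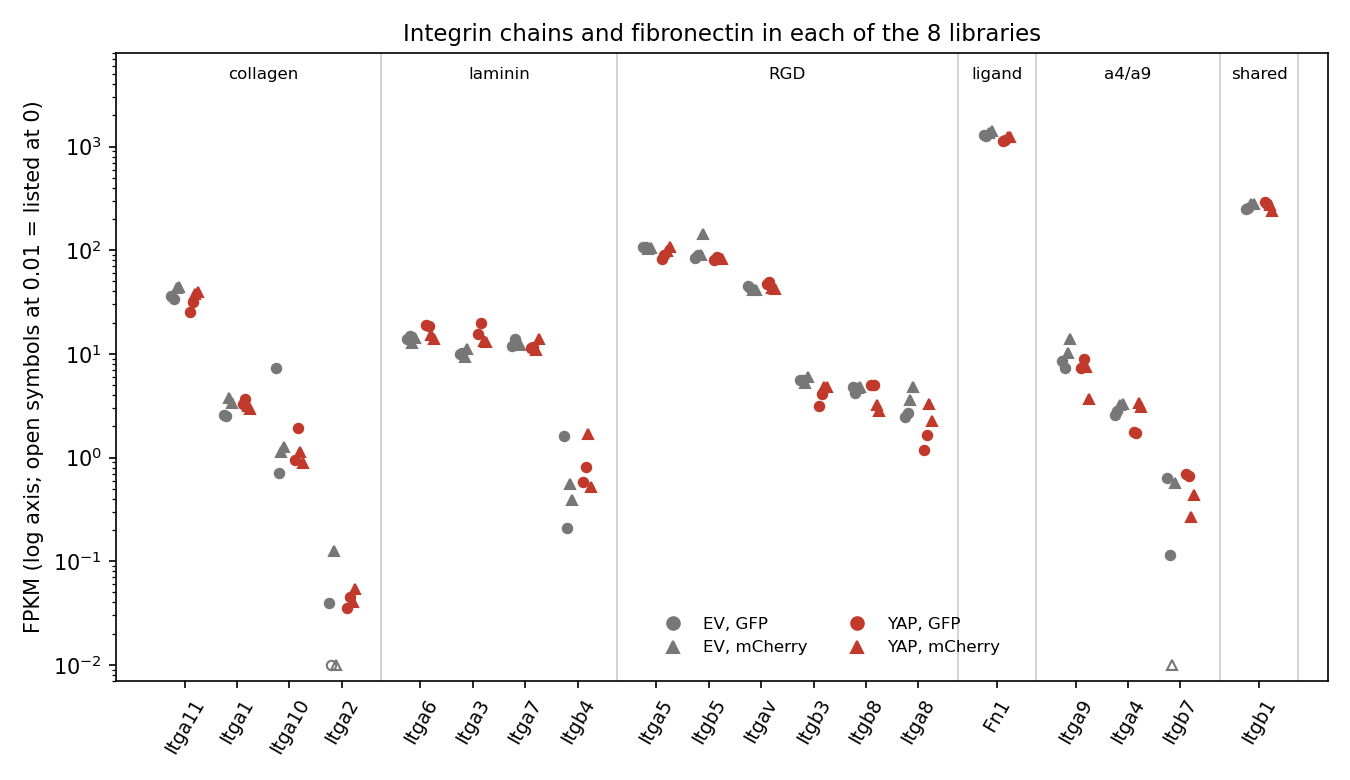
FPKM on a log axis of the 18 integrin chains and fibronectin in each library, by ligand group; grey is EV, red is YAP, circles are GFP and triangles mCherry libraries, and open symbols mark values listed at 0. Itgb1, from 239 to 292 FPKM, and Fn1, from 1144 to 1400.0 FPKM, stood above every other gene drawn.

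YAP and EV libraries were compared for the 34 members tested. Of these, 0 rose, 1 fell (2.94%) and 33 did not pass an adjusted p of 0.05 (limma, Benjamini-Hochberg over 13276 genes). Over all genes 0.934% were called higher and 0.821% lower, 1.76% in all. The member that fell was Tns3, which encodes tensin 3, an adaptor that links beta chain tails to actin. Without adjustment, 9 of the 34 (26.5%) had a p under 0.05, 3 above 0 and 6 below, against 14.5% of all genes. In 6 members (17.6%) all 4 YAP libraries lay on 1 side of all 4 EV libraries, against 9.46% of all genes. Tns3, Itgb3 and Fn1 were on the lower side, where 4.83% of all genes lay, and Tln2, Itga3 and Tln1 on the higher side, where 4.63% lay. The median log2 difference was -0.11 over the members and -0.0038 over all genes, and 23 members were below 0. Differences of single members ran from -0.60 to 0.56.

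**Figure D2:**
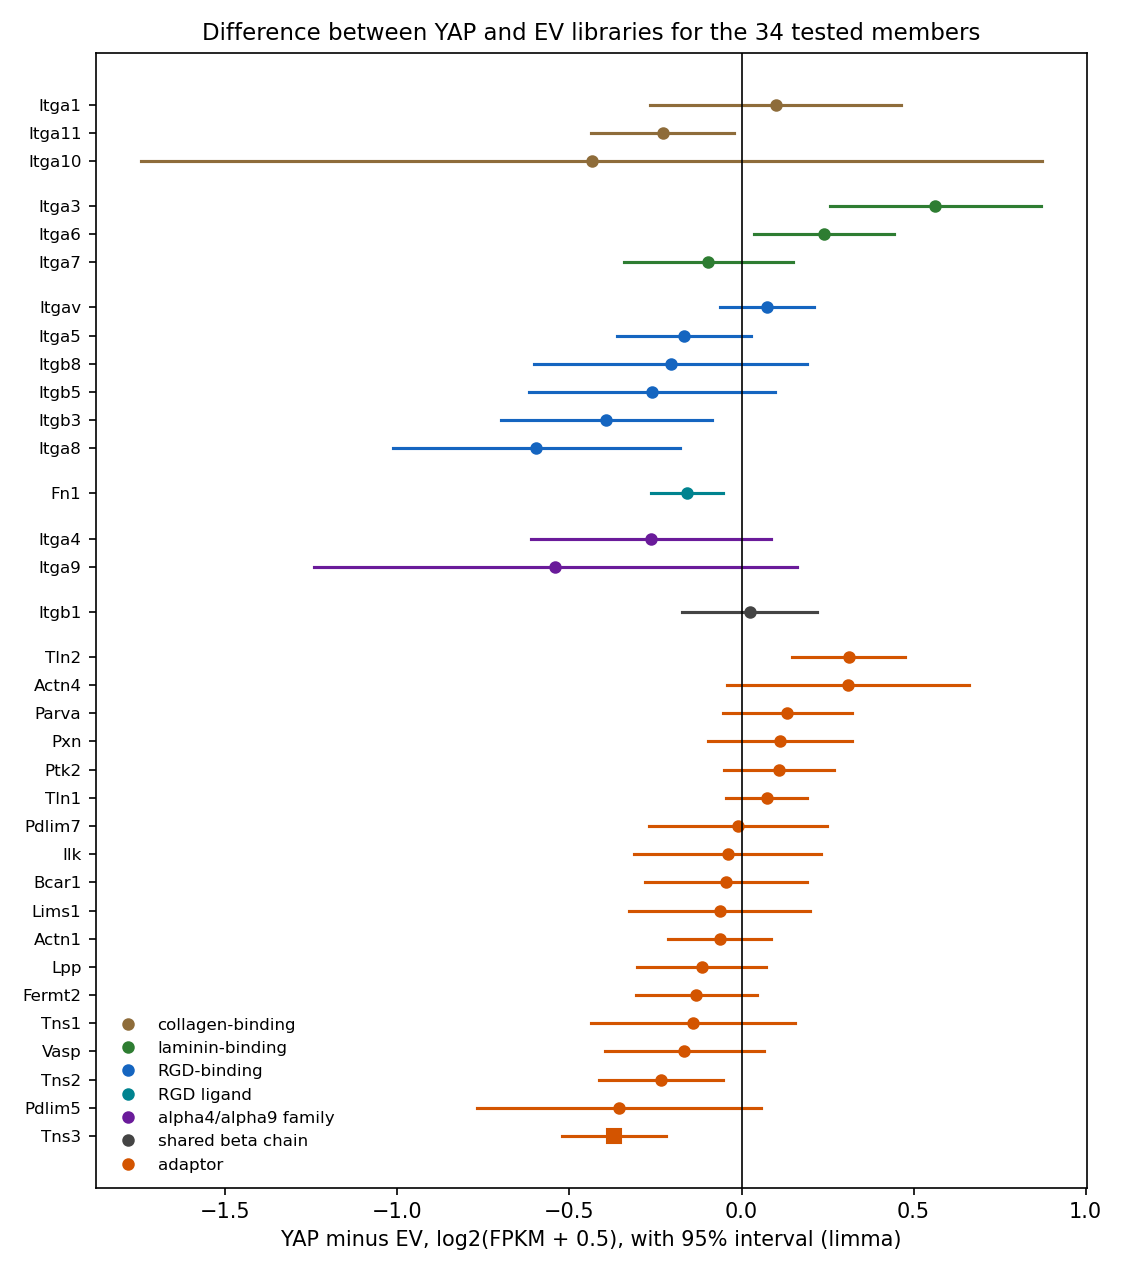
Log2 difference of YAP minus EV, on the log2(FPKM + 0.5) scale, with its 95% interval for each tested member, coloured by role; Tns3 is the 1 member past the threshold over all genes. Intervals of 9 members leave out 0 without correction for the number of genes, and that of Itga10, from -1.74 to 0.87, is among the widest.

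Among laminin-binding chains Itga3 and Itga6 were higher in YAP on average, and neither passed. Itga3 (ENSMUSG00000001507, chromosome 11, 95044474 to 95076801, minus strand, GRCm38) encodes the alpha chain of a major laminin receptor of epithelia. Its levels were 9.95, 10.2, 9.34 and 11.2 FPKM in EV and 15.5, 20.03, 13.2 and 13.2 FPKM in YAP. Every YAP library lay above every EV library, and the YAP GFP libraries were the highest. The means were 10.2 ± 0.798 and 15.5 ± 3.22 FPKM, and the log2 difference was 0.56 (SE 0.13, 95% interval 0.26 to 0.87, limma adjusted p = 0.103). In the authors' deposited table, which gives 1 value per pooled arm, Itga3 was called higher, at 13.6 and 23.7 FPKM (q = 0.003903). Itga6, another laminin receptor chain, had 13.9, 14.9, 12.7 and 14.1 FPKM in EV and 19.005, 18.4, 15.1 and 13.9 FPKM in YAP. YAP replicates 1 to 3 lay above all EV libraries and YAP replicate 4 among them (log2 0.24, interval 0.036 to 0.44, limma adjusted p = 0.274). Itga7, the laminin receptor chain of muscle, ranged from 11.9 to 14.1 FPKM in EV and from 10.9 to 14.1 FPKM in YAP (log2 -0.097, interval -0.34 to 0.15).

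Some markers of mesothelium and epithelium were higher in YAP, as was Itga3, and others were not. The summed FPKM of 4 mesothelial markers was 13.5 to 14.98 in EV and 25.4 to 34.95 in YAP, and that of 8 epithelial markers was 11.1 to 21.8 in EV and 21.6 to 48.99 in YAP. Most of the mesothelial sum was Msln, at means of 9.21 FPKM in EV and 23.4 FPKM in YAP. Most of the epithelial sum was Krt19, at means of 11.2 FPKM in EV and 22.5 FPKM in YAP. Msln and Krt7 rose. Upk3b and Krt19 did not pass, at 0.91 and 0.98 on the log2 scale, and Wt1, Lrrn4 and Krt18 lay below 0, at -0.19, -0.14 and -0.34. Krt8 averaged 0.408 FPKM in EV and 0.225 FPKM in YAP, Epcam and Esrp1 were at 0 in all libraries, and Cdh1 averaged 0.0601 FPKM in EV and 0.203 FPKM in YAP. The part of these markers in the Itga3 values was not tested.

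Collagen-binding chains did not pass. Itga11, a collagen I receptor chain of fibroblasts, had 36.5, 33.8, 42.9 and 44.01 FPKM in EV and 25.4, 31.97, 37.7 and 39.9 FPKM in YAP. Within each reporter the YAP libraries were lower, and mCherry libraries were above GFP libraries of the same vector, so the pooled groups overlapped. The log2 difference was -0.23 (interval -0.44 to -0.021, limma adjusted p = 0.305). Itga1, a collagen receptor chain, ranged from 2.54 to 3.71 FPKM over all libraries (log2 0.099, interval -0.27 to 0.46). Itga10, a cartilage collagen receptor chain, had 7.28, 0.705, 1.13 and 1.26 FPKM in EV and 0.954, 1.94, 1.13 and 0.882 FPKM in YAP. EV replicate 1 stood far above every other library. The log2 difference of -0.44 (limma adjusted p = 0.774) was 0.15 without it. Other protein-coding genes overlap Itga10 (Gm42957) and Itga1 (Pelo and Gm49395) on the same strand, so the levels of these chains are uncertain. Protein-coding genes on the opposite strand overlap Itga7, Itga4, Tln1, Ilk and Actn4, and use of strand in counting is not stated.

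RGD-binding chains lay mostly below 0, 5 of 6, where 50.7% of all genes lay. Of the 6, 0 were called, against 1.76% of all genes, and 2 had an unadjusted p under 0.05, against 14.5%. Itgb3, the beta chain that forms a vitronectin and osteopontin receptor with Itgav, had 5.62, 5.66, 5.27 and 6.04 FPKM in EV and 3.14, 4.13, 4.82 and 4.82 FPKM in YAP. All YAP libraries were below all EV libraries, with YAP replicate 1 lowest. The means of 5.65 ± 0.315 and 4.23 ± 0.793 FPKM gave a log2 difference of -0.39 (SE 0.13, interval -0.70 to -0.087, limma adjusted p = 0.233). The authors' deposited table calls Itgb3 lower, at 6.39 and 4.82 FPKM (q = 0.0137). Itga8, an RGD receptor chain that binds nephronectin, had the lowest log2 difference of the members, with 2.48, 2.68, 3.56 and 4.75 FPKM in EV and 1.19, 1.66, 3.32 and 2.28 FPKM in YAP. YAP was lower within each reporter, and the groups overlapped because YAP replicate 3 stood above EV replicates 1 and 2 (log2 -0.60, interval -1.01 to -0.18, limma adjusted p = 0.189).

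The abundant fibronectin receptor chain Itga5 had 107, 108, 103 and 106 FPKM in EV and 81.8, 90.96, 99.4 and 107 FPKM in YAP. YAP replicates 1 and 2 were lowest, and YAP replicate 4 lay within the EV range (log2 -0.17, interval -0.36 to 0.027, limma adjusted p = 0.411). Itgav ranged from 41.5 to 45.6 FPKM in EV and from 41.98 to 48.99 FPKM in YAP (log2 0.074, interval -0.063 to 0.21). Itgb5 had 84.1, 89.5, 90.5 and 143 FPKM in EV and 80.7 to 85.7 FPKM in YAP, with EV replicate 4 apart from the rest. Its log2 difference of -0.26 (limma adjusted p = 0.4996) was -0.089 without that library. Itgb8, which activates latent TGF-beta with Itgav, ranged from 4.19 to 4.77 FPKM in EV and had 5.04, 5.04, 3.24 and 2.79 FPKM in YAP, above the EV range with GFP and below it with mCherry.

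Fibronectin, a ligand of these receptors, had a level above that of 99.6% of the genes tested. Fn1 (ENSMUSG00000026193, chromosome 1, 71585520 to 71653200, minus strand, GRCm38) had 1300.1, 1276, 1339 and 1400.0 FPKM in EV and 1144, 1149.8, 1247 and 1225 FPKM in YAP. The groups did not overlap, and the means were 1329 ± 54.01 and 1191 ± 52.5 FPKM. The log2 difference was -0.16 (SE 0.045, interval -0.26 to -0.053, limma adjusted p = 0.169). The authors' deposited table does not call Fn1, at 1624 and 1450 FPKM (q = 0.569). Spp1, osteopontin, another RGD ligand, fell from 1372 ± 50.8 to 619.6 ± 112 FPKM (log2 -1.16, limma adjusted p = 0.00273). Vtn, vitronectin, was listed above 0 in 1 library, at 0.354 FPKM. Vcam1, a ligand of Itga4 and Itga9, had 45.7 ± 4.48 and 46.8 ± 3.49 FPKM.

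Chains of the alpha4/alpha9 family did not pass. Itga4, known as a chain of leukocyte homing receptors, had 2.60, 2.80, 3.21 and 3.31 FPKM in EV and 1.76, 1.74, 3.34 and 3.07 FPKM in YAP, so that YAP was below all EV libraries with GFP and level with EV with mCherry. The log2 difference was -0.26 (interval -0.61 to 0.085, limma adjusted p = 0.477). Itga9 had 8.51, 7.32, 10.3 and 13.97 FPKM in EV and 7.34, 8.83, 7.45 and 3.70 FPKM in YAP, with EV replicate 4 highest and YAP replicate 4 lowest. Its log2 difference of -0.54 (interval -1.24 to 0.16, limma adjusted p = 0.469) was -0.34 without EV replicate 4 and -0.24 without YAP replicate 4. The leukocyte integrin chains Itgam and Itgb2 averaged 2.41 and 2.91 FPKM in EV and 1.94 and 3.06 FPKM in YAP. The part of the macrophage markers in the Itga4 values was not tested.

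The shared chain Itgb1 (ENSMUSG00000025809, chromosome 8, 128685654 to 128733200, plus strand, GRCm38) had 252, 253, 280.3 and 281 FPKM in EV and 292, 279.9, 274 and 239 FPKM in YAP. YAP was higher with GFP and lower with mCherry. The pooled log2 difference was 0.023 (interval -0.17 to 0.22, limma adjusted p = 0.931). Itgb1 held 70.5 ± 4.02 percent of the summed FPKM of the 6 beta chains in EV and 74.5 ± 1.61 percent in YAP.

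**Figure D3:**
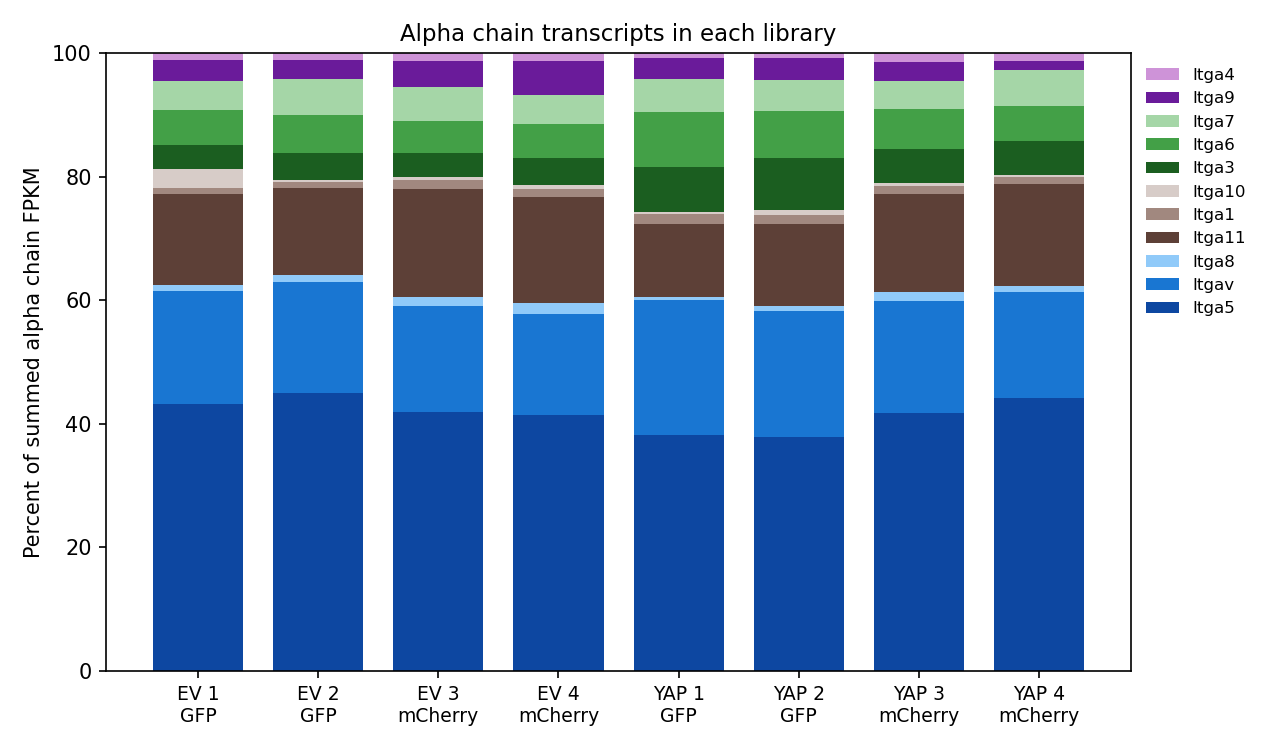
Percent of the summed FPKM of the 12 alpha chains held by each chain in each library, coloured by ligand group. Itga2, which held at most 0.051 percent, is not drawn. The laminin-binding share was 14.4 to 16.3 percent in EV and 16.5 to 21.4 percent in YAP, and the RGD-binding share 59.6 to 64.1 percent in EV and 58.99 to 62.3 percent in YAP.

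Summed by ligand, laminin-binding alpha chains held 14.96 ± 0.908 percent of the alpha chain sum in EV and 18.9 ± 2.61 percent in YAP, and the groups did not overlap. RGD-binding alpha chains held 61.6 ± 2.02 and 60.8 ± 1.41 percent, and collagen-binding chains 18.2 ± 1.86 and 16.3 ± 1.94 percent, with overlapping groups. Itga5 alone held 41.5 to 45.01 percent in EV and 37.9 to 44.1 percent in YAP. These shares describe chosen genes, carry no test, and depend on the uncertain level of Itgav.

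All 18 adaptors were tested, and 1 fell and 0 rose, so that 5.56% were called against 1.76% of all genes. An unadjusted p under 0.05 was found for 3 (16.7%), a share near the 14.5% of all genes. Their median absolute log2 difference was 0.12, against 0.24 for the 15 integrin chains tested and 0.15 for all genes. The sets differ in level, since no adaptor averaged under 13.5 FPKM over the 8 libraries. The tested chains include low genes with a wide spread, such as Itga10 (mean 1.91 FPKM, SE 0.56). The part of level in these medians was not tested. Tns3 (ENSMUSG00000020422, chromosome 11, 8431652 to 8664535, minus strand, GRCm38) had 52.8, 50.1, 53.05 and 52.4 FPKM in EV and 37.3, 42.2, 41.7 and 39.7 FPKM in YAP. Each YAP library was lower than each EV library. Tns3 fell from a mean of 52.1 ± 1.33 to 40.2 ± 2.25 FPKM, and the log2 difference was -0.37 (SE 0.064, interval -0.52 to -0.22, limma adjusted p = 0.0435). With GFP the difference was -0.37, and with mCherry -0.37. The call was lost when any 1 of the 8 libraries was left out, with a limma adjusted p from 0.0934 to 0.142. In the authors' deposited table Tns3 was not called, at 82.7 and 65.97 FPKM (q = 0.185).

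The other tensins lay below 0 without passing. Tns2 had 37.8, 37.3, 32.9 and 34.2 FPKM in EV and 28.2, 33.5, 28.4 and 30.7 FPKM in YAP, where YAP replicate 2 reached into the EV range (log2 -0.23, interval -0.41 to -0.055, limma adjusted p = 0.224). Tns1 ranged from 29.8 to 41.6 FPKM in EV and from 25.2 to 43.6 FPKM in YAP (log2 -0.14, interval -0.44 to 0.16). Its level is uncertain, since the authors' deposited table gives 98.7 FPKM in the control arm, 2.73 times the mean of the EV libraries.

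Talins, which bind beta chain tails and switch integrins on, lay above 0 without passing. Tln2 (ENSMUSG00000052698, chromosome 9, 67217087 to 67559703, minus strand, GRCm38) had 11.9, 11.2, 12.1 and 12.8 FPKM in EV and 14.7, 15.3, 14.5 and 15.5 FPKM in YAP. The groups were apart in either reporter, with means of 12.002 ± 0.665 and 15.01 ± 0.473 FPKM. The log2 difference was 0.31 (SE 0.070, interval 0.15 to 0.48, limma adjusted p = 0.0942). The authors' deposited table calls Tln2 higher, at 13.3 and 16.7 FPKM (q = 0.0102). Tln1, the more abundant talin, had 109, 111, 106 and 109 FPKM in EV and 114, 119, 112 and 113 FPKM in YAP. Its groups did not overlap, and the log2 difference was 0.073 (interval -0.046 to 0.19, limma adjusted p = 0.572). Tln2 made up 9.91 ± 0.597 percent of the summed talin FPKM in EV and 11.6 ± 0.315 percent in YAP.

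**Figure D4:**
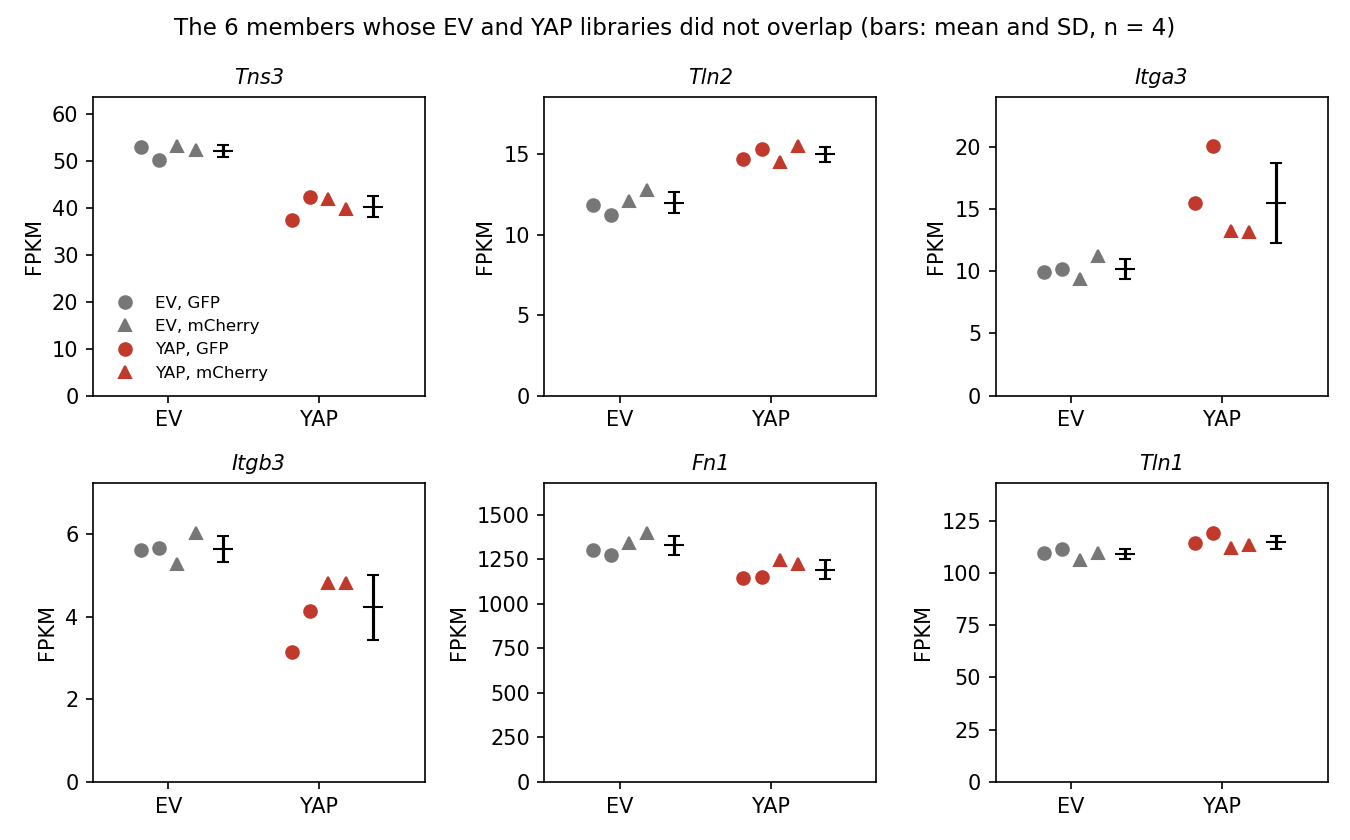
FPKM per library, from 0, of the 6 members whose EV (grey) and YAP (red) libraries did not overlap; circles are GFP and triangles mCherry libraries, and the black bar is the mean with its SD over 4 libraries. Tns3, Itgb3 and Fn1 are lower and Tln2, Itga3 and Tln1 higher in YAP, and Tns3 alone passed the threshold over all genes.

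Actin crosslinkers and regulators were not called. Actn4, alpha-actinin 4, the most abundant adaptor, had 310.3, 299.8, 310.5 and 439.7 FPKM in EV and 418, 424, 487 and 347 FPKM in YAP. EV replicate 4 stood inside the YAP range, and the log2 difference of 0.31 (interval -0.044 to 0.66, limma adjusted p = 0.401) was 0.44 without that library. In the authors' deposited table Actn4 was not called, at 469.9 and 497.6 FPKM (log2 0.083, q = 0.758). Actn1, alpha-actinin 1, ranged from 169.9 to 220.4 FPKM over all libraries (log2 -0.064, interval -0.21 to 0.086). Vasp, which promotes actin filament elongation, ranged from 162 to 189 FPKM in EV and from 138 to 183 FPKM in YAP (log2 -0.17, interval -0.40 to 0.065). Its difference was -0.37 with GFP and 0.033 with mCherry.

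The kinase and scaffold adaptors were not called. The complex of integrin-linked kinase, PINCH and parvin, which couples beta chains to actin, had log2 differences of -0.040 for Ilk (interval -0.31 to 0.23), -0.064 for Lims1 (interval -0.33 to 0.20) and 0.13 for Parva (interval -0.055 to 0.32). Fermt2, kindlin 2, which activates integrins with talin, had a log2 difference of -0.13 (interval -0.31 to 0.046). Ptk2, focal adhesion kinase, had means of 16.9 ± 0.737 and 18.3 ± 1.81 FPKM (log2 0.11, interval -0.052 to 0.27). Its scaffold partners Pxn, paxillin, and Bcar1, p130Cas, had log2 differences of 0.11 (interval -0.097 to 0.32) and -0.045 (interval -0.28 to 0.19). The LIM domain proteins Lpp, Pdlim5 and Pdlim7 had log2 differences of -0.12, -0.36 and -0.012. For Pdlim5 the EV libraries had 66.8, 104, 58.2 and 65.5 FPKM, and the difference without EV replicate 2 was -0.17.

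Between mCherry and GFP libraries 0 of 34 members were called by limma, against 0.0904% of all genes, and 6 (17.6%) had an unadjusted p under 0.05, against 10.6% of all genes. The reporters did not overlap for 4 members, against 5.1% of all genes: Itga11, Itga4 and Actn1 were higher and Ptk2 lower in mCherry. The log2 difference of mCherry minus GFP was 0.37 for Itga11 (limma adjusted p = 0.2796), 0.68 for Itga8 (limma adjusted p = 0.301) and 0.48 for Itga4 (limma adjusted p = 0.365). For Actn1, Tns1 and Itga6 it was 0.21, 0.35 and -0.23. Of the 13 macrophage and leukocyte markers tested, 11 had an unadjusted p under 0.05 in the same comparison and 0 were called by limma. Their part in the Itga4 and Itga8 values was not tested.

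Whether YAP minus EV differed with the reporter was tested as an interaction. By limma, 0 of 34 members passed, against 0.0678% of all genes, and 7 (20.6%) had an unadjusted p under 0.05, against 9.81% of all genes. These were Itgb8, Bcar1, Vasp, Itgb1, Itga1, Itga5 and Itga9, with limma adjusted p from 0.389 for Itgb8 to 0.495 for Itga9. The absolute log2 difference was larger in GFP than in mCherry libraries for 29 of 34 members (85.3%) and for 55.5% of all genes. For Itga3 it was 0.78 in GFP and 0.35 in mCherry, for Itgb3 -0.58 and -0.21, and for Itga5 -0.32 and -0.017. The sign was the same in either reporter for 24 members (70.6%) and for 55.4% of all genes. Each such value rests on 2 against 2 libraries.

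**Figure D5:**
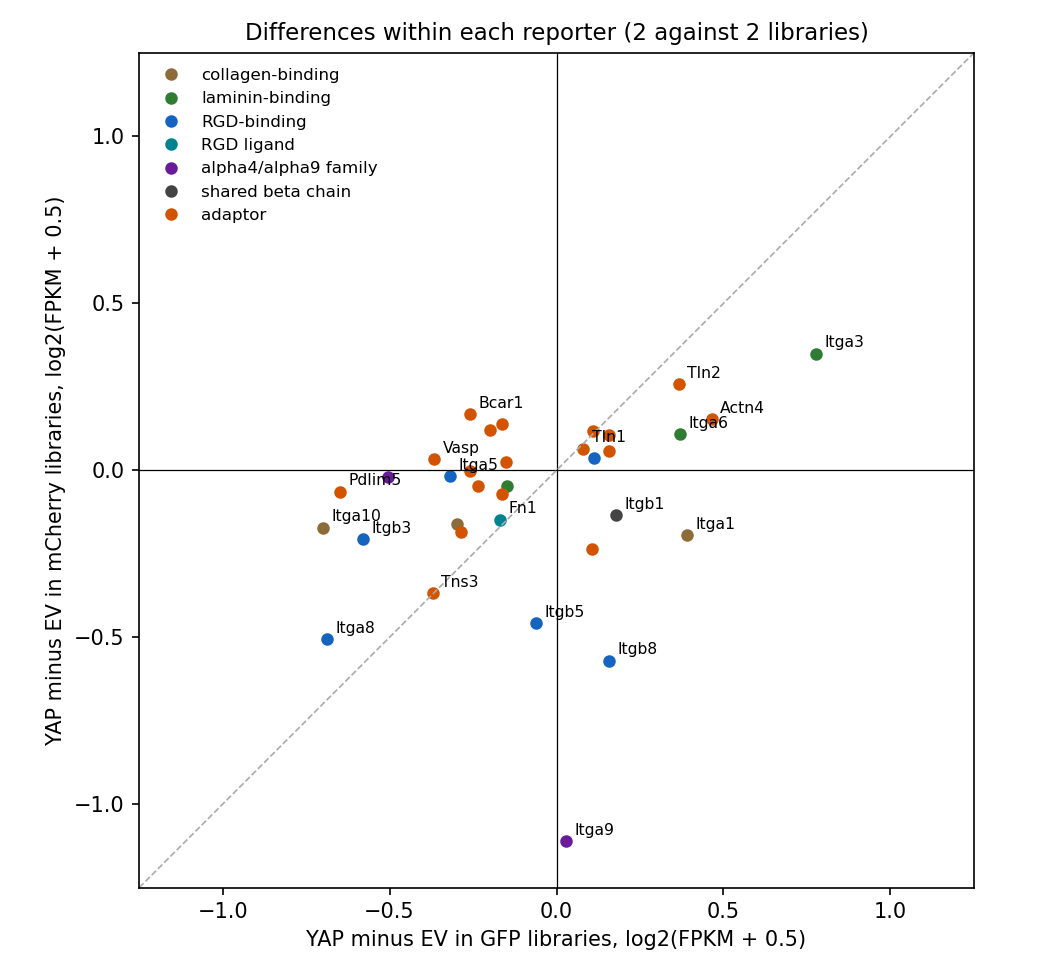
YAP minus EV on the log2(FPKM + 0.5) scale in GFP libraries and in mCherry libraries for the 34 tested members, coloured by role. Tns3 lies at -0.37 and -0.37, Itga3 at 0.78 and 0.35, and Itga9 at 0.028 and -1.11 in GFP and mCherry.

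Other genes of focal adhesions were counted from a list of structural and signalling components. Of 73 found in the table, 63 were tested: 1 rose, 0 fell and 62 did not pass, so that 1.59% were called against 1.76% of all genes. Flnc, filamin C, which crosslinks actin, rose from 72.01 ± 2.53 to 92.3 ± 6.66 FPKM (log2 0.35, limma adjusted p = 0.0423). Without any 1 library the count of these genes called was 0, except 1 without YAP replicate 3. An unadjusted p under 0.05 was found for 18 (28.6%), 13 above and 5 below 0, against 14.5% of all genes. The groups did not overlap for 16 (25.4%), against 9.46% of all genes. The median log2 difference of the list was 0.047. Pdlim1, Ajuba and Pdlim2, LIM domain proteins named after their values were seen, did not pass. Their log2 differences were 0.51, 0.50 and 0.57, with limma adjusted p of 0.0582, 0.0588 and 0.07301.

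The authors' deposited table called 3 of the 34 members, Itga3 and Tln2 higher and Itgb3 lower, against 5.95% of the 12005 genes tested there. Levels in that table are on another scale. Its control arm stood at a median of 1.198 times the EV mean over the 34 members and 1.135 times over all genes. It stood at over 1.5 times for 5 members (14.71%), Tns1, Itgav, Pxn, Lims1 and Tns3, against 13.51% of all genes. For Itga3 the control arm was 1.33 times the EV mean and the YAP arm 1.53 times the YAP mean. The same values were 1.11 and 1.11 for Tln2 and 1.13 and 1.14 for Itgb3.

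TEAD factors are the main DNA-binding partners of YAP, and AP-1 often binds beside them, so the members' start sites were searched for their letters. RefSeq windows (GRCm38.p6) from 250 bases before to 50 after a start were found for 28 members, 35 windows in all. Itga6, Itga7, Itgb3, Itgb4, Fn1, Pxn, Tln2, Parva and Ptk2 had no window and were not searched. The TEAD letters GGAATG, on either strand, stood in 4 of the 35 (11.4%), those of Itga10, Itgb1, Lpp and Actn4, against 14.7% of all 32851 windows. The AP-1 letters TGANTCA, on either strand, stood in 3 (8.57%), those of Itga3, Itga9 and Actn4, against 7.81%. A match is not a site, and no match says only that these letters are not in the window. Shown 5′ to 3′ on the gene's strand, with motif letters in capitals, are the windows of Tns3, the member that fell, of Itga3, the member with the highest log2 difference, and of Actn4, which holds each motif once. They lie on the minus strand at chr11:8664486-8664785 for Tns3, chr11:95076665-95076964 and chr11:95069149-95069448 for the upstream and downstream starts of Itga3, and chr7:28962283-28962582 for Actn4.
Tns3: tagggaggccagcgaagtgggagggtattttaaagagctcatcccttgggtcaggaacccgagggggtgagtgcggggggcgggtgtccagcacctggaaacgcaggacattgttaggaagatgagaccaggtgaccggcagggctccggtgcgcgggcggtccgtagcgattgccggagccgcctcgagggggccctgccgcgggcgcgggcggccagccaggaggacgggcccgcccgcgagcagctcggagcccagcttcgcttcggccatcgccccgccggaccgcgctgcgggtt
Itga3 upstream start: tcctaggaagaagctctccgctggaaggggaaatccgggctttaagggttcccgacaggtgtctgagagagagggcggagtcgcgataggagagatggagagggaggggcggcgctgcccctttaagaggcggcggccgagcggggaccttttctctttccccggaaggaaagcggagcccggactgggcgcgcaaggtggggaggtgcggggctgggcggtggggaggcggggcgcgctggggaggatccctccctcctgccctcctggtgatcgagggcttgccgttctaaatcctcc
Itga3 downstream start: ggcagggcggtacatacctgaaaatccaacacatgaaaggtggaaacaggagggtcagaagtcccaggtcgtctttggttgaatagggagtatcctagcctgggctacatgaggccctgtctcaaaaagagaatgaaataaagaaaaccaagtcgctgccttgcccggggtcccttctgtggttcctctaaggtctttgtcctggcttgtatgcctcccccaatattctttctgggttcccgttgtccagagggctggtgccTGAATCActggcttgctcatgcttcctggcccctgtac
Actn4: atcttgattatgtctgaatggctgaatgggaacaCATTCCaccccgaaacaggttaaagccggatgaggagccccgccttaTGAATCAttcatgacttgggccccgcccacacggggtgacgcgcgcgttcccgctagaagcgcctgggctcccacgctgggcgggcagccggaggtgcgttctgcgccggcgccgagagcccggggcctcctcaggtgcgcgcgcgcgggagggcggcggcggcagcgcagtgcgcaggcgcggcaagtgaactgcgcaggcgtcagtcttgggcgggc
Tns3 and the upstream start of Itga3 hold neither motif, and the downstream start of Itga3 holds 1 AP-1 match.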

How the data were processed

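Stranded mRNA libraries of 8 samples were analysed, per the labels' protocols. The authors deposited FPKM per gene and library, and a second table with FPKM per pooled arm, a p-value and a q-value, per the file headers. The submitters' processing notes name TopHat, Cufflinks and mm10; versions, the annotation and use of strand in counting are not given in the sources used here. Of 48641 entries, 114 with 49 repeated identifiers were left out; 0 columns matched no sample. The 13276 genes that averaged at least 1 FPKM were tested as log2(FPKM + 0.5), which understates differences of low genes, with limma 3.58.1 in R 4.3.3 (variance trend, terms for reporter and vector). Benjamini-Hochberg adjustment ran over all of them, with a threshold of 0.05. The fit was also run on data simulated from its own means and spreads with independent normal noise. That run checks the code and not the assumptions of the fit. Intervals are limma's 95% intervals. Within-reporter and interaction values are contrasts of 4 arm means with a shared spread. Coordinates are from GENCODE M21 (GRCm38, the assembly of mm10). Members and lists were chosen with earlier results of these data known. By rule, values in every library are given for members past the threshold, the 2 of each role with the smallest p, the most abundant of each role, and members averaging at least 1 FPKM with a value of 0 (none); other members given so were chosen after their values were seen. Other focal adhesion genes past the threshold are named by rule, and 3 that did not pass were named after their values were seen. Python 3.11.15 with pandas 2.3.3, numpy 2.4.6, scipy 1.17.1 and matplotlib 3.10.9 made the tables and plots.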

Additional observations from a re-analysis of the deposited data

Results flagged for a closer look

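In 4 of 74 groups of 4 libraries examined, 1 library stood apart from the other 3 beyond the 95% critical value of Dixon. Chance flags about 1 in 20 groups, and 8.02% of all tested genes in EV and 7.77% in YAP had such a library. In EV replicate 4, Itgb5 was listed at 143 FPKM, against 84.1 to 90.5 FPKM in the others, and Actn4 at 439.7 FPKM, against 299.8 to 310.5 FPKM. Itga10 stood at 7.28 FPKM in EV replicate 1, against 0.705 to 1.26 FPKM. Lpp stood at 37.7 FPKM in YAP replicate 3, against 31.1 to 31.5 FPKM. What set these libraries apart was not tested.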

How the results depend on the processing

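Under 20 alternatives, 0 members rose and 0 were called for the reporter or the interaction in each alternative where those terms could be fitted. Tns3 kept its direction in all 20, from -0.40 to -0.33, and passed in 8. The GFP and mCherry alternatives are the within-reporter contrasts of the fit on all 8 libraries, with its shared spread, and not separate fits. The count of members that fell was 0 without the variance trend, in the GFP contrast and in the mCherry contrast. It was also 0 with a replicate block (Tns3 adjusted p = 0.208 by limma), and 0 to 0 without any 1 library. The cause was not tested. Deviations of same-numbered libraries from their group means had correlations of -0.015 to 0.0897. Such values over all genes cannot tell whether equal numbers share a culture, embryo or sort, and the labels state no pairing. The block left 6 genes higher and 9 lower over all genes. Without a filter on level 75 were higher and 71 lower, without the reporter term 80 and 70, and without the variance trend 78 higher. In the mCherry contrast 32 were higher and 21 lower, and without any 1 library 25 to 56 and 21 to 58. Other focal adhesion genes called numbered 3 at a mean FPKM of at least 5 and 0 to 1 without any 1 library. They numbered 0 in the GFP contrast, without the reporter term, without the variance trend, with quantile normalization and with the block. Directions turned for 11 members, none called. In the GFP contrast the values were 0.16 for Itgb8, 0.028 for Itga9 and 0.11 for Lims1. In the mCherry contrast the values were -0.19 for Itga1, -0.13 for Itgb1, 0.033 for Vasp, 0.12 for Ilk and 0.024 for Actn1. In the same contrast they were 0.17 for Bcar1 and 0.14 for Pdlim7. Itgb1 was -0.036 with quantile normalization. Without any 1 library, ranges crossed 0 for Itga10 (-0.92 to 0.15), Itgb1 (-0.020 to 0.093), Ilk (-0.097 to 0.065), Bcar1 (-0.10 to 0.018), Lims1 (-0.11 to 0.049) and Pdlim7 (-0.084 to 0.091). Depth is unknown, so values under 1 FPKM are described only.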
